A study of Saccharomyces cerevisiae S288C with 6 samples.

Results

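The genes described here handle copper and zinc in budding yeast. They were taken by gene name from a table of 7126 rows, and all 10 were found: the metallothionein genes CUP1-1, CUP1-2 and CRS5, the copper transporter gene CTR1, the zinc transporter genes ZRT1 and ZRT2, and IZH1, IZH2, IZH3 and IZH4. The group was put together because CUP1-1 and IZH4 were high in wild type library 1 alone. The levels of CUP1-1, of its identical copy CUP1-2 and of IZH4 are therefore given as a description, with no test. The other 7 genes were added for their known roles and are read from a test across all genes.

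Messenger RNA was measured as tags from 3' ends in Saccharomyces cerevisiae S288C, in 3 libraries labelled ltv1-/ltv1- (both copies of LTV1 deleted, strain EDS615) and 3 labelled WT (strain EDS76). Both strains were grown in rich medium (YPD) at 30 °C and harvested at an optical density of 0.5 to 0.6. Ltv1 helps to build the small subunit of the ribosome, and the study compared expression with and without its gene. The libraries held 1002573 to 1248710 reads, and no label names the cultures behind them, so p-values cover the spread of these libraries alone, which may be technical. Reads of LTV1 went against the labels, with a normalized count of 680, 3.22 and 6.40 in the libraries labelled ltv1 deletion 1, 2 and 3, against 29.2, 191 and 8.77 in those labelled wild type 1, 2 and 3. Below, ltv1 deletion and wild type mean the libraries labelled so, and every direction is one between libraries as labelled.

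Copper is needed by respiratory and antioxidant enzymes and is toxic in excess. When copper is scarce, the transcription factor Mac1 turns on the uptake genes CTR1, CTR3, FRE1 and FRE7, and when it is plentiful the factor Cup2 (also called Ace1) turns on the metallothioneins, small cysteine-rich proteins that bind the metal. When zinc is scarce, the factor Zap1 turns on the uptake genes ZRT1 and ZRT2 along with IZH1 and IZH2. The Izh proteins are membrane proteins related to the adiponectin and progestin receptors of animals.

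The coding sequences of the metallothionein genes are shown because they carry the metal-binding cysteines and, in CRS5, an annotation that limits the reading of its messenger RNA. They were read from the RefSeq genome of build R64, 5' to 3'. Capitals mark cysteine codons (TGT or TGC) and any in-frame stop codon before the last.
CUP1-1, chrVIII:212535-212720, minus strand: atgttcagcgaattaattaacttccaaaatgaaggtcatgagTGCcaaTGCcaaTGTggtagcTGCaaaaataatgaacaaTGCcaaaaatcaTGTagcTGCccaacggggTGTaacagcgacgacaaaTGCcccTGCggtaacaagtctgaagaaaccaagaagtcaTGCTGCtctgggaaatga
CRS5, chrXV:389213-389422, plus strand: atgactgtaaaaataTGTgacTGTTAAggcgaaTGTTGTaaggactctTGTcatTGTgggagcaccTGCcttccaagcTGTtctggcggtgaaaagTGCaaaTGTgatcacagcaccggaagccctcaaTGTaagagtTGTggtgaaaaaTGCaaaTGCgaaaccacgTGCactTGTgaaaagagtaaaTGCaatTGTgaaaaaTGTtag
CUP1-1 had 12 cysteine codons among 62, the stop included. CRS5 had 19 among 70, but its codon 9 is the stop TAA, and RefSeq annotates the gene in this reference strain as a pseudogene. The values of CRS5 below are thus levels of a transcript and say nothing of its protein.

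The copies CUP1-1 and CUP1-2 (YHR053C and YHR055C) differed at 0 of 186 coding bases and lay 1998 bases apart on chromosome VIII. The identical stretch around each copy was 1988 bases long, so no read within it can be given to one copy. The deposited values split it evenly: CUP1-1 had 91 of 180 CUP1 reads in ltv1 deletion 1, 210 of 416 in ltv1 deletion 2 and 186 of 375 in ltv1 deletion 3, against 1898 of 3790 in wild type 1, 113 of 224 in wild type 2 and 118 of 236 in wild type 3. The copies were summed for this reason. How many CUP1 copies these strains carry is not stated in the labels. The non-coding RNA genes RUF5-1 and RUF5-2 are annotated across the copies on the opposite strand. The strand used in counting is not given, so reads from the shared bases may have been counted for either gene. The 3' end of RUF5-1, at 213118, lies outside CUP1-1 (212535 to 212720). In ltv1 deletion 1, 2 and 3 the deposited normalized counts were 0, 0 and 22.8 for RUF5-1 and 16.8, 17.2 and 0 for RUF5-2. In wild type 1, 2 and 3 they were 11.7, 0 and 14.6 for RUF5-1 and 9.72, 14.6 and 14.6 for RUF5-2. How reads were divided among these rows was not tested. YHR052C-B and YHR054C-B are annotated across the copies on the same strand, and their reads cannot be told from those of CUP1.

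Stretches of 300 bases before 4 start codons are shown because they hold, or lack, the letters that the metal-responsive factors are known to bind. Searches ran on both strands over the 500 bases before the start codon. The letters were TTTNGCTG for Cup2, TTTGCTC for Mac1, TTCNNGAA for the heat shock factor and AGGGG for the stress factors Msn2 and Msn4, and for Zap1 its palindromic zinc-responsive element. Capitals mark the matches named in the next paragraph.
CUP1-1, chrVIII:212721-213020, minus strand, 300 to 1 bases before the start codon: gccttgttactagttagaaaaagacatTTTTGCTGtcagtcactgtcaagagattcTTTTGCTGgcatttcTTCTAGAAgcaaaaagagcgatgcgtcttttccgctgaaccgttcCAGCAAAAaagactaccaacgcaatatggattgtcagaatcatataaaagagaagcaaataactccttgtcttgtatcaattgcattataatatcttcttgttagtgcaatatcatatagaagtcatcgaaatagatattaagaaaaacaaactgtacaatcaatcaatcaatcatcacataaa
CTR1, chrXVI:785858-786157, plus strand, 350 to 51 bases before it: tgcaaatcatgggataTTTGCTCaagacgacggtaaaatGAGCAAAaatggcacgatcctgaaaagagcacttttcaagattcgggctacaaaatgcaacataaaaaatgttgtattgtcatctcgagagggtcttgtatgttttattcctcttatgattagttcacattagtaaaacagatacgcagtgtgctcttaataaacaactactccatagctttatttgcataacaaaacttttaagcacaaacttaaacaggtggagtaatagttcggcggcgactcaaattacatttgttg
ZRT1, chrVII:20678-20977, plus strand, 300 to 1 bases before it: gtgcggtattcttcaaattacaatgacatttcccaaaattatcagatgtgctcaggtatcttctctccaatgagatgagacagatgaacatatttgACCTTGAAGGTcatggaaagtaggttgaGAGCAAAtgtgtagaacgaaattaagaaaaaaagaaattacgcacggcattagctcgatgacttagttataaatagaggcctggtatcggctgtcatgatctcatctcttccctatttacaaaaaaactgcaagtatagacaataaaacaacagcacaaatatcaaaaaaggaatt
IZH4, chrXV:127921-128220, minus strand, 300 to 1 bases before it: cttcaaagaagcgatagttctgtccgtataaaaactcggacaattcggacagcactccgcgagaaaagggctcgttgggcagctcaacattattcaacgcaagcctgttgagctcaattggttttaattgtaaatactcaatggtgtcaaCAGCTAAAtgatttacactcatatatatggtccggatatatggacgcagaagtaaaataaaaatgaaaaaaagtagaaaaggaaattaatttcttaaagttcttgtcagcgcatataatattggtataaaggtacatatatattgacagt

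Each CUP1 copy had 3 matches to the Cup2 letters, beginning 273, 244 and 184 bases before the start codon, and 1 heat shock match at 229. Of 6006 upstream stretches in the annotation 8.94% held the Cup2 letters and 21.2% the heat shock letters. CTR1 had 2 Mac1 matches, at 334 and 311, and 8.61% of all stretches held at least 1. ZRT1 had 1 Zap1 match at 204, where 0.150% of all stretches, 9 in number, held one, and 1 Mac1 match at 176. IZH4 had 1 match to the Cup2 letters at 150 and none of the other 4. CRS5 had 2 matches to AGGGG, at 221 and 63, which 34.1% of all stretches held, and ZRT2 had a Mac1 match at 495 and a heat shock match at 287. IZH1, IZH2 and IZH3 had no match to any of the 5. A match is a description of letters, not a site, and a missing match says only that these letters were not in this window.

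CUP1 and IZH4, the genes behind the choice, stood far above all other libraries in wild type 1. Summed CUP1 had 189, 447 and 343 normalized counts in ltv1 deletion 1, 2 and 3, against 3683, 233 and 230.02 in wild type 1, 2 and 3. CUP1-1 alone had 95.7, 226 and 170.0 in the deletion libraries, against 1845, 118 and 115 in the wild type libraries, and CUP1-2 had 93.6, 221 and 173 against 1839, 116 and 115. In the sum, wild type 1 was 8.24 times the next highest library, ltv1 deletion 2, and 15.8 times the median of the other 5, and CUP1 took 0.304% of its reads against 0.0167% to 0.0385% elsewhere. Among the other 5 libraries the highest CUP1 value was 2.36 times the lowest, and wild type 2 and 3 lay between ltv1 deletion 1 and ltv1 deletion 3.

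IZH4 (YOL101C, chromosome XV, 126982 to 127920), the Izh gene with the fewest reads outside wild type 1, had 13.7, 6.45 and 5.48 normalized counts in ltv1 deletion 1, 2 and 3, against 182, 6.25 and 1.95 in wild type 1, 2 and 3. These values come from 13, 6 and 6 reads in the deletion libraries, against 187, 6 and 2 in the wild type libraries. Wild type 1 was 29.1 times the median of the other 5 and 13.3 times the highest of them. Outside wild type 1 the gene was near the floor of 3 reads, worth 2.74 to 3.22 normalized counts, so its differences among those libraries rest on very few reads.

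**Figure D1:**
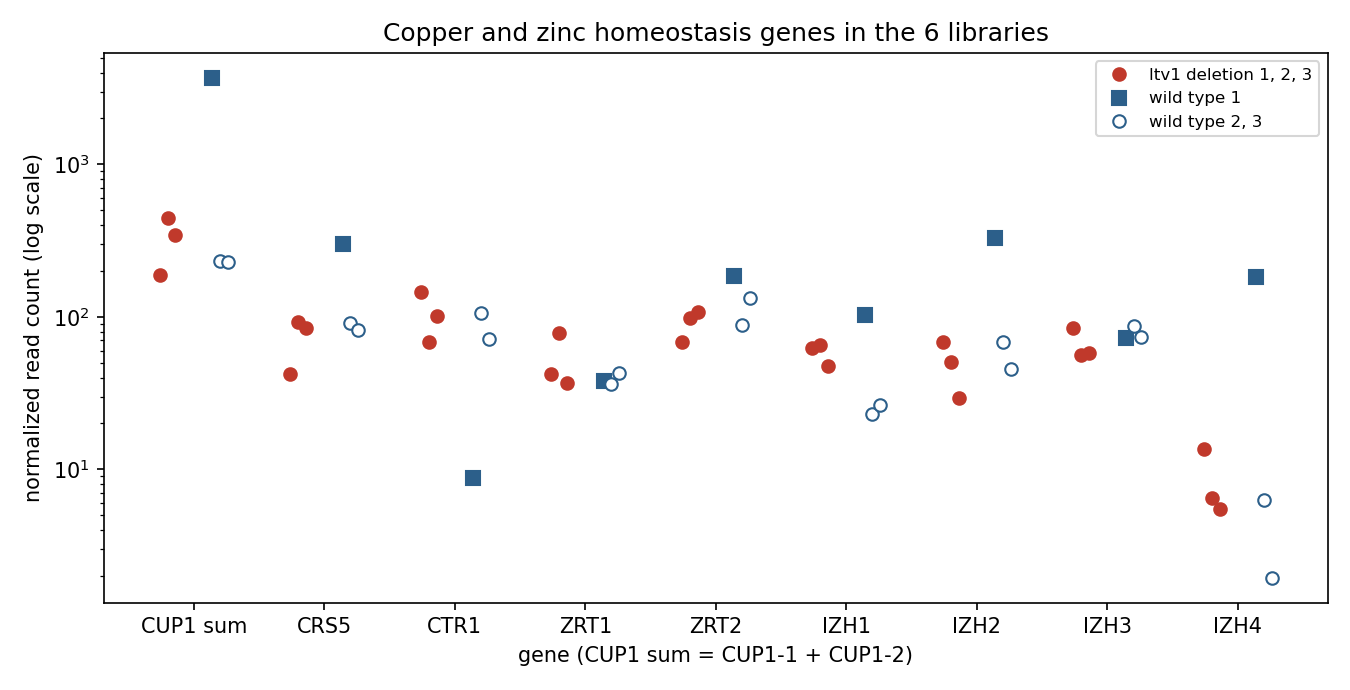
Normalized read count (log scale) of each gene in the 6 libraries, with ltv1 deletion libraries as red points left of the wild type libraries in blue, and wild type 1 as a filled square. Wild type 1 stands above all other libraries for CUP1 (3683), CRS5 (302), IZH2 (328), IZH4 (182), ZRT2 (186) and IZH1 (102) and below them for CTR1 (8.75).

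The second metallothionein gene was also highest in wild type 1. CRS5 (YOR031W) had 42.0, 92.4 and 85.0 normalized counts in ltv1 deletion 1, 2 and 3, against 302, 90.6 and 81.9 in wild type 1, 2 and 3. Wild type 1 was 3.27 times the next highest library, ltv1 deletion 2, and 3.56 times the median of the other 5, a smaller excess than that of CUP1. Without wild type 1 the 2 groups lay in the same range, with ltv1 deletion 1 lowest for CRS5 as for CUP1. The group means were 73.2 ± 27.2 in ltv1 deletion and 158 ± 125 in wild type (SD, n = 3 each). This difference did not pass the threshold (log2 fold change -0.91, standard error 0.54, limma adjusted p = 0.266), and it shrank to -0.31 without wild type 1.

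The copper uptake gene went the other way. CTR1 (YPR124W, chromosome XVI, 786208 to 787428), the high-affinity copper transporter of the plasma membrane, had 145, 68.8 and 101 normalized counts in ltv1 deletion 1, 2 and 3, against 8.75, 105 and 71.1 in wild type 1, 2 and 3. The 9 reads in wild type 1 compare with 64 to 138 in the other libraries, whose lowest value was 7.86 times that of wild type 1. So the library with the most CUP1 had the least CTR1. The means were 105 ± 38.3 in ltv1 deletion and 61.7 ± 48.9 in wild type (SD, n = 3 each; log2 fold change 1.27, standard error 0.83, limma adjusted p = 0.307). Without wild type 1 the fold change shrank to 0.21.

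Among 16 other copper genes tested, which include genes that Mac1 is known to activate, 0 had a wild type 1 value at least 2-fold above or below all other libraries. Over all genes tested the shares were 2.26% above and 4.17% below, so a count of 0 among 16 is near the background. FRE1, a surface reductase that prepares copper for uptake, had 108, 53.7 and 81.3 in ltv1 deletion 1, 2 and 3, against 27.2, 48.9 and 47.8 in wild type 1, 2 and 3, where wild type 1 was lowest but not 2-fold below the next. CTR3, a second copper transporter, had 11.6, 3.22 and 5.48 against 12.6, 10.4 and 4.87, with wild type 1 highest. FRE7 had 1 to 6 reads in every library and was not tested. The gene for Mac1 itself had 22.1, 10.7 and 17.4 against 33.0, 32.3 and 12.7 (log2 fold change -0.55, limma adjusted p = 0.388), and that for Cup2, the activator of CUP1, had 23.1, 16.1 and 18.3 against 10.7, 22.9 and 18.5, with wild type 1 lowest (0.18, limma adjusted p = 0.712).

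Neither zinc transporter gene passed the test between labels. ZRT1 (YGL255W, chromosome VII, 20978 to 22108), the high-affinity zinc transporter, had 42.0, 78.5 and 36.6 normalized counts in ltv1 deletion 1, 2 and 3, against 37.9, 36.4 and 42.9 in wild type 1, 2 and 3. Its highest library was ltv1 deletion 2, and wild type 1 lay among the rest (log2 fold change 0.34, standard error 0.31, limma adjusted p = 0.477). ZRT2 (YLR130C, chromosome XII, 402794 to 404062), the low-affinity transporter, had 68.3, 98.9 and 107 in the deletion libraries, against 186, 88.5 and 133 in the wild type libraries. Wild type 1 was highest, at 1.40 times the next, wild type 3 (log2 fold change -0.53, standard error 0.33, limma adjusted p = 0.286).

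The Izh family did not move as a unit. IZH2 (YOL002C, chromosome XV, 323411 to 324364), through which the plant defence protein osmotin is known to act, had 68.3, 50.5 and 29.2 normalized counts in ltv1 deletion 1, 2 and 3, against 328, 68.7 and 45.8 in wild type 1, 2 and 3. Wild type 1 was 4.76 times the next highest library, wild type 2 (log2 fold change -1.10, standard error 0.70, limma adjusted p = 0.292; -0.26 without wild type 1). IZH3 (YLR023C, chromosome XII, 185498 to 187129) had 84.1, 55.9 and 57.6 in the deletion libraries, against 72.9, 86.4 and 74.1 in the wild type libraries. Its wild type 1 value was the lowest of the 3 wild type values, and its highest and lowest values outside wild type 1 differed 1.55-fold, the narrowest range of the 10 genes (log2 fold change -0.26, standard error 0.24, limma adjusted p = 0.481).

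IZH1 (YDR492W, chromosome IV, 1434924 to 1435874) was the 1 gene of the 7 chosen by role whose call changed with wild type 1. It had 62.0, 65.6 and 47.5 normalized counts in ltv1 deletion 1, 2 and 3, against 102, 22.9 and 26.3 in wild type 1, 2 and 3. The 3 deletion values lay above wild type 2 and 3 and below wild type 1. All 6 libraries gave a log2 fold change of 0.53 (standard error 0.54, limma adjusted p = 0.508). Without wild type 1 it came to 1.20 (standard error 0.24, limma adjusted p = 0.0323), in a fit that called 10.8% of the genes tested and 6.89% as higher in the deletion. The adjusted p ranged from 0.0323 to 0.878 over 17 alternatives, and the fit without wild type 1 was the only one of them under 0.05.

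Set against the whole table, wild type 1 stood at least 2-fold apart from all other libraries for part of the genes. Some of the 10 are among them, but not ZRT1, ZRT2, IZH1 or IZH3. No such count was made for the other 5 libraries. Over 5663 genes tested, on the log2(value + 1) scale, 2.26% stood at least 2-fold above all other libraries there and 4.17% at least 2-fold below. Of the 10 genes, 5 were at least 2-fold above the highest other library (CUP1-1, CUP1-2, CRS5, IZH2 and IZH4) and 1 at least 2-fold below the lowest (CTR1). Wild type 1 was the highest library for 7 of the 10 and the lowest for 1, where the shares over all genes were 28.0% and 28.4%. The choice of the genes used this library, so nothing is read from these counts. Ranked by the excess of wild type 1 over the median of the other 5, IZH4 was 14th of 5663, CUP1-2 and CUP1-1 were 20th and 21st, IZH2 69th and CRS5 215th, and CTR1 was 58th from the low end. TDH3, which encodes a glycolytic dehydrogenase, made up 5.66% of all reads in wild type 1, against 1.33% to 2.88% in the other 5 libraries. What part this composition had in the values was not tested.

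**Figure D2:**
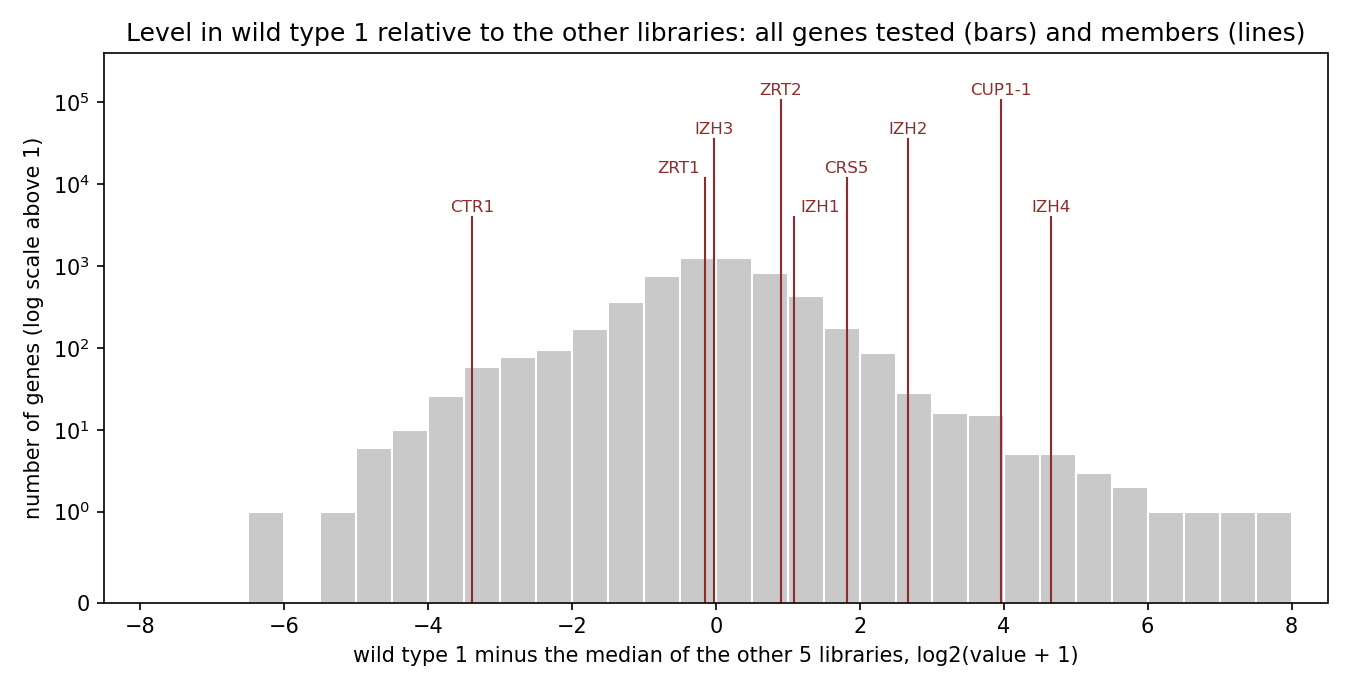
Number of genes (log scale above 1) by the log2(value + 1) level in wild type 1 minus the median of the other 5 libraries, for the 5663 genes tested, with lines for the copper and zinc genes (CUP1-2 lies next to CUP1-1). IZH4 at 4.66, CUP1-1 at 3.96 and IZH2 at 2.67 lie in the upper tail, CTR1 at -3.39 in the lower, and ZRT1 and IZH3 near 0.

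Between the labels, none of the 7 genes chosen by role passed the threshold. Limma called 0 of them, where it called 15.9% of 5663 genes, 8.88% as higher and 6.98% as lower in ltv1 deletion. None of the 7 had an unadjusted limma p under 0.05, where 1963 of the 5663 genes did. On the recovered reads edgeR and DESeq2 also called 0 of the 7, where they called 19.8% and 21.3% of all genes tested. In none of the 7 did the 3 deletion values lie apart from the 3 wild type values, where 41.6% of all genes tested did. The median log2 fold change of the 7 was -0.26, and that of all genes tested was -0.02. Their standard errors of 0.24 to 0.83 on the log2 scale limit what differences these 6 libraries can show.

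**Figure D3:**
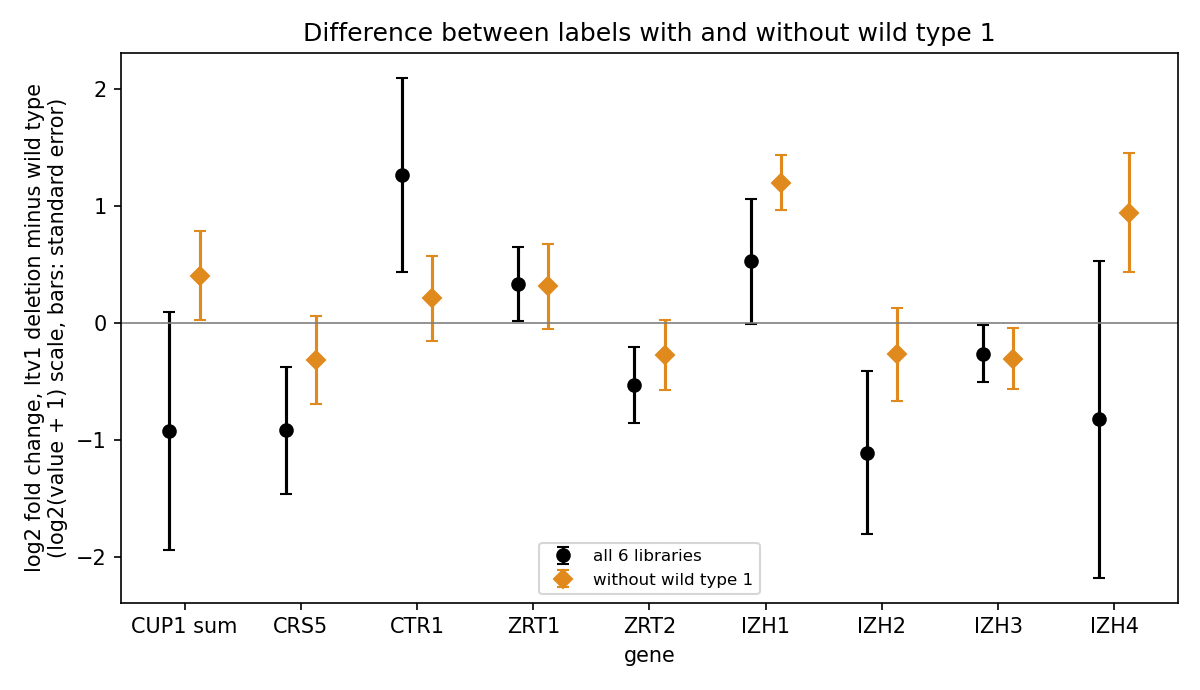
Log2 fold change (log2(value + 1) scale), ltv1 deletion minus wild type, for each gene with all 6 libraries (black circles) and without wild type 1 (orange diamonds), with bars of 1 standard error. Summed CUP1 stands at -0.92 with and 0.41 without wild type 1, and IZH4 at -0.82 and 0.95.

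Summed CUP1 and IZH4 turned sign with that library. The means of summed CUP1 were 326 ± 130 in ltv1 deletion and 1382 ± 1993 in wild type (SD, n = 3 each), a log2 difference of -0.92, and those of IZH4 were 8.53 ± 4.47 and 63.3 ± 103 (SD, n = 3 each), a log2 difference of -0.82. Without wild type 1 the log2 differences were 0.41 and 0.95. In the authors' deposited table the 4 genes CUP1-1, CUP1-2, IZH2 and IZH4 are classed as outliers and have no p-value, as are 66 rows (0.926%) in all. The other 6 have an adjusted p of 1 in the authors' deposited table. What difference the authors' test asked about is not stated, so these p-values may not answer the same question as those of limma.

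Other genes of copper handling, 17 listed by their known roles, gave 16 tested genes, of which 1 rose and 1 fell (median log2 fold change -0.29), a share near the 15.9% called over all genes and so no result about the list. CCS1, the chaperone that loads copper into superoxide dismutase, fell to 196, 219 and 239 normalized counts in ltv1 deletion 1, 2 and 3, against 601, 387 and 529 in wild type 1, 2 and 3. The means were 218 ± 21.5 in libraries labelled ltv1 deletion and 506 ± 109 in those labelled wild type (SD, n = 3 each), without overlap (log2 fold change -1.19, standard error 0.25, limma adjusted p = 0.0217), and without wild type 1 the value was -1.06. Its client SOD1, copper-zinc superoxide dismutase, had 4912, 4345 and 4336 against 8477, 6213 and 10501, also without overlap, but missed the threshold (log2 fold change -0.86, limma adjusted p = 0.0587). IRC7, a cysteine desulfhydrase gene that Mac1 is known to activate, rose to 108, 75.2 and 106, against 56.4, 55.2 and 39.96 (log2 fold change 0.92, standard error 0.26, limma adjusted p = 0.0497), and its wild type 1 value lay beside that of wild type 2.

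Neither copper call held in every fit. That of CCS1 ended without wild type 3 and without each deletion library, and that of IRC7 without any 1 of the 6 libraries, with adjusted p of 0.000136 to 0.139 and of 0.0226 to 0.254 over the alternatives. Leaving out wild type 2 gave 4 copper genes called (17.3% of all genes in that fit), leaving out wild type 1 gave 1 (10.8%), and leaving out wild type 3 (9.83%) or ltv1 deletion 1, 2 or 3 (2.81%, 3.57% and 0.657%) gave 0, so the counts moved with those over all genes.

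Of 15 other zinc genes, 14 were tested, 1 rose and 1 fell (median log2 fold change 0.15), again near the 15.9% called over all genes. COT1, a vacuolar transporter that stores zinc and cobalt, rose to 27.3, 40.8 and 53.9 normalized counts in ltv1 deletion 1, 2 and 3, against 16.5, 13.5 and 15.6 in wild type 1, 2 and 3. All 3 libraries labelled ltv1 deletion lay above those labelled wild type, at means of 40.7 ± 13.3 and 15.2 ± 1.53 (SD, n = 3 each; log2 fold change 1.31, standard error 0.29, limma adjusted p = 0.0240; 1.37 without wild type 1). TSA1, the major cytosolic peroxiredoxin and a Zap1 target, fell to 998, 919 and 938, against 2327, 1449 and 2040 (log2 fold change -0.999, standard error 0.25, limma adjusted p = 0.0331). The gene for Zap1 had 18.9, 7.52 and 14.6 against 15.5, 18.7 and 11.7 (-0.22, limma adjusted p = 0.697).

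The zinc calls likewise rested on the libraries used. COT1 lost its call without wild type 3, ltv1 deletion 2 or ltv1 deletion 3, and TSA1 without any library but wild type 2, with adjusted p of 0.00751 to 0.0910 and of 0.00102 to 0.167 over the alternatives. In the same fits, whose shares over all genes are given above, leaving out wild type 2 gave 3 zinc genes called, leaving out wild type 1 or ltv1 deletion 1 gave 1, and leaving out any of the other 3 libraries gave 0. The authors' deposited table classes CCS1, IRC7, COT1 and TSA1 all as insignificant. Its adjusted p was 0.2504 for CCS1 and 0.7996 for COT1, and higher for IRC7 and TSA1. For CCS1 it gives an unadjusted p of 0.0113 beside a log2 fold change of -1.10 with standard error 0.26. That p is large for such a ratio, so the authors' test may not have asked about a difference from 0. Its settings are not stated, and it is not read as a repeat of the limma test.

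**Figure D4:**
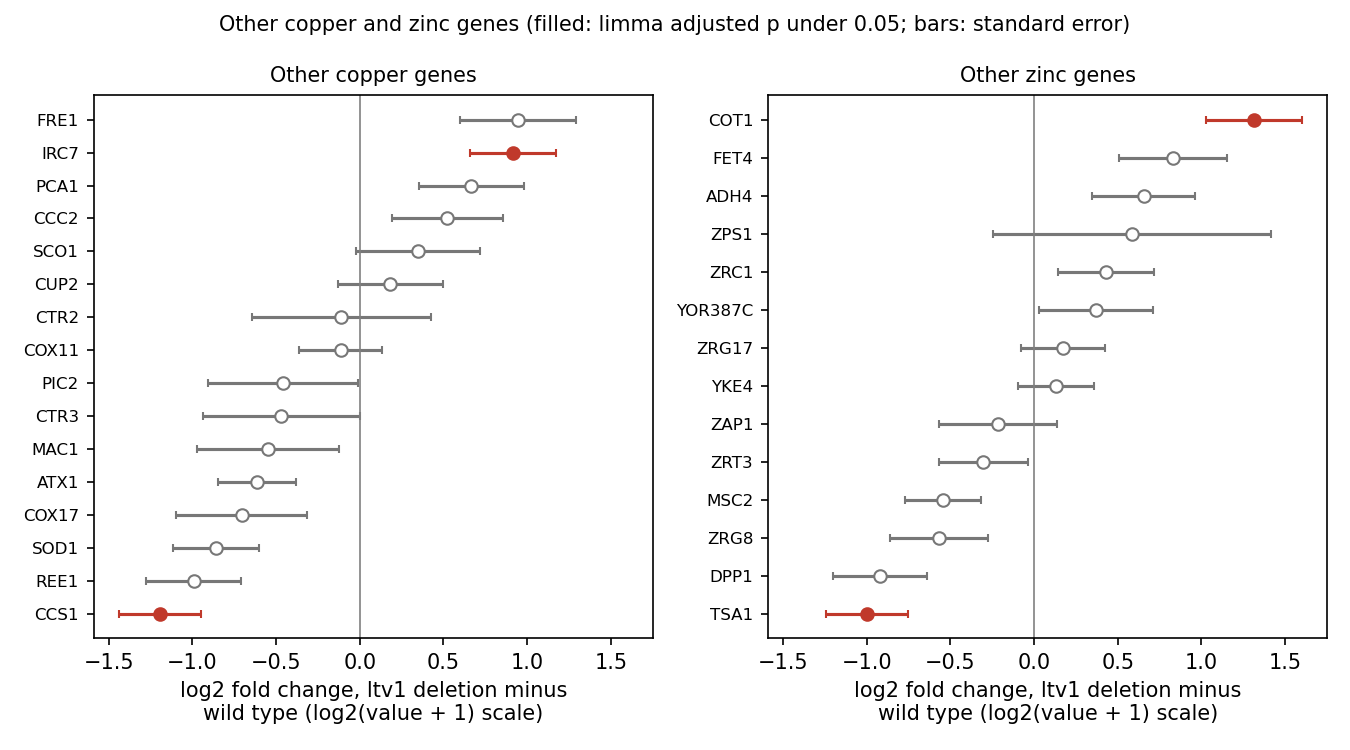
Log2 fold change (log2(value + 1) scale), ltv1 deletion minus wild type, of the 16 other copper genes and 14 other zinc genes tested, with bars of 1 standard error and filled red points where the limma adjusted p was under 0.05. CCS1 (-1.19) and TSA1 (-0.999) lie lowest in their panels, COT1 (1.31) highest, and IRC7 (0.92) just under FRE1 (0.95), which missed the threshold.

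The genes whose profile over the 6 libraries came nearest to those of CUP1 and IZH4 were found by the root mean square difference of log2(value + 1) values, each centred on its own mean. Nearest to summed CUP1 were TIP1, a cell wall mannoprotein gene (0.51), the enolase gene ENO1 (0.62), MVB12, of the endosomal sorting complex (0.69), TSC3, of sphingolipid synthesis (0.71), and NOP10, of small nucleolar ribonucleoproteins (0.71). TIP1 had 104, 146 and 124 normalized counts in ltv1 deletion 1, 2 and 3, against 890.2, 165 and 107 in wild type 1, 2 and 3. Nearest to IZH4 were the retrotransposon gag gene YMR051C (0.84), HEM13, of heme synthesis (0.90), NOP10 (0.97), IZH2 (0.98) and TIP1 (1.01). HEM13 had 74.6, 60.2 and 45.7 against 242, 39.6 and 22.4, while YMR051C was at 0 in every library but wild type 1, where it had 68.0. The single copies CUP1-1 and CUP1-2 were left out of this search, and of the rest of the 10 genes only IZH2 was among the neighbours. Each profile is dominated by wild type 1, so a high value there is what the measure selects.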

How the data were processed

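Gene expression was measured in 6 libraries, 3 of each label. The submitters' processing notes list build R64, R 4.1.3, DESeq2 1.34.0, Salmon, STAR, Trim Galore and FastQC; settings, counting strand and any molecular identifiers are not stated there. The authors deposited a normalized signal per gene and library, in which 100% of values above 0 were whole multiples (within 0.01) of the worth of 1 read, so whole reads were recovered. The authors' deposited log2 fold changes had the same sign as those computed here in 100% of the 898 genes called, so both run ltv1 deletion over wild type. The authors' deposited p-values were read for the genes described and not recomputed.

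Limma 3.58.1 in R 4.3.3 was run on log2(value + 1) for genes whose 6 values averaged 5 or more, with Benjamini-Hochberg adjustment over 5663 genes and a threshold of 0.05. Fold changes on that scale understate those of low genes. edgeR 4.0.16 on recovered reads called 1121 genes. Simulated counts, with the same spread in every library, were used to test the procedure. They held no library that differed as wild type 1 does, so they do not show how the fit behaves with it. Genes and lists were chosen with earlier results of these data known. Besides the 10 genes, the text names LTV1, MAC1, CUP2, ZAP1, listed genes that passed, and the 5 nearest profiles of summed CUP1 and of IZH4; CTR3, FRE1, FRE7, SOD1, TDH3 and the neighbours of CUP1 were named after their values were seen. No label states a pairing of same-numbered libraries, and the main fit did not pair them. Of 7126 identifiers 6048 matched the R64 annotation. Read numbers limit precision by counting error only.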

Additional observations from a re-analysis of the deposited data

How the results depend on the processing

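Over all genes limma called 898, against 430 with the replicate block, 16 when ltv1 deletion 1 and wild type 3 were both left out (LTV1 was high in the first and low in the second, and wild type 1 also had few LTV1 reads), and 37 to 981 with 1 library left out (leaving out ltv1 deletion 3 gave 37, leaving out ltv1 deletion 1 gave 159, leaving out ltv1 deletion 2 gave 202 and leaving out wild type 3 gave 557). The deviations of same-numbered libraries correlated at -0.11, -0.20 and 0.07, and those of ltv1 deletion 1 and wild type 2 at 0.28. With so few libraries this cannot show whether same-numbered libraries were prepared together. The 7 genes chosen by role had 0 calls in every fit but 1, and 0 to 1 with 1 library left out. The other copper genes called numbered 2, against 1 with no filter or a pseudocount of 0.5, 4 with a mean of at least 50 or a pseudocount of 5, 5 with DESeq2, 0 with the replicate block or without both libraries, and 0 to 4 with 1 library left out. The other zinc genes called numbered 2, against 1 with no filter, 0 with the replicate block or without both libraries, and 0 to 3 with 1 library left out. Over all genes the share called was 15.9% in the main fit and 10.3% with no filter. It was 15.1% with a pseudocount of 0.5, 18.6% with 5, 27.1% with a mean of at least 50 and 21.3% with DESeq2. With the replicate block it was 7.59%, and without both libraries 0.282%. No count is thus read as a result about either list. The log2 differences of summed CUP1 and IZH4 ran from -1.59 to 0.41 and from -2.03 to 0.95 with 1 library left out, both upper values being those without wild type 1, where the sign reversed; IZH4 was -2.39 without both libraries. The cause was not tested. IZH4 and ZRT1 have no value with a mean of at least 50. With edgeR the difference of summed CUP1 was -2.05 and that of IZH4 -2.87. Scaling by library totals, chosen after seeing the data, put wild type 1 at 13.6 times the median of the other 5 for summed CUP1 and 27.0 times for IZH4.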

Other observations

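The authors' deposited table gives a mean level for CUP1-1 of 994 and for CUP1-2 of 991, where the 6 libraries averaged 428 and 426, ratios of 2.32 and 2.33. The same ratio was 1.78 for IZH2, 1.71 for IZH4, 1.60 for IZH1, 1.45 for ZRT1 and 1.02 for ZRT2, against a median of 1.01 over all genes tested. Ratios at or above that of CUP1-1 were found in 0.954% of the genes and at or above that of IZH1 in 3.43%. CRS5, CTR1 and IZH3 had ratios of 0.922, 0.956 and 0.907. The cause of these ratios was not tested.

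Around the CUP1 copies, YHR054C, an open reading frame between them that lies within the repeated stretch, had 14.7, 23.6 and 12.8 normalized counts in ltv1 deletion 1, 2 and 3, against 22.4, 9.37 and 21.4 in wild type 1, 2 and 3. RSC30, of a chromatin remodelling complex, had 27.3, 16.1 and 20.1 against 50.5, 43.7 and 9.75, with wild type 1 highest but beside wild type 2. Its 3' end, at 215183, lies within the identical stretch around CUP1-2 (214264 to 216251). Reads from there cannot be told from those of YHR054C, so the values of these genes are not separate measurements. CIC1, on the other side and outside the stretch, had 179.8, 175 and 173 against 38.9, 112 and 62.4, with wild type 1 lowest.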
